A study of Mus musculus with 16 samples.

Results

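The vascular endothelial growth factors (VEGF) and the angiopoietins are the 2 main ligand families that act on the endothelium through receptor tyrosine kinases, and 10 of their genes were described in mouse ventricle. They were chosen by name as the rows of the expression table that map to the ligands Vegfa, Vegfb and Vegfc, the VEGF receptors Flt1, Kdr and Flt4, the angiopoietins Angpt1 and Angpt2, and the receptors Tek and Tie1. All 10 were among the 22372 genes of the table, and all 10 passed the filter on low values that left 13331 genes for testing. The libraries came from 16 mice of strain C57BL/6J, 10 to 12 weeks old when the experiment began, with 4 mice in each of 4 groups. Sham-Veh mice had sham surgery and vehicle, Sham-THZ1 mice had sham surgery and THZ1, TAC-Veh mice had transverse aortic constriction (TAC), which loads the left ventricle with pressure, and vehicle, and TAC-THZ1 mice had TAC and THZ1. THZ1, a covalent inhibitor of the transcription kinases CDK7, CDK12 and CDK13, was given by intraperitoneal injection at 10 mg/kg b.i.d. from day 1 to day 60 after surgery. Surgery and injection acted on the whole animal and not on 1 cell type, and each library was made from a piece of ventricle that holds all the cell types of the tissue.

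In the heart, cardiomyocytes and stromal cells secrete the ligands and the endothelium carries most of the receptors. VEGF-A binds Flt1 (VEGFR1) and Kdr (VEGFR2), and Kdr carries most of its mitogenic signal, whereas Flt1 binds it tightly and also acts as a decoy. VEGF-B binds Flt1 alone and is abundant in heart muscle, and VEGF-C acts through Flt4 (VEGFR3) and is best known for lymphatic growth. Angpt1 is the agonist of Tek (Tie2) and keeps vessels quiescent, Angpt2 is released by endothelial cells and can antagonize it, and Tie1 is a partner of Tek with no high-affinity angiopoietin of its own.

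The question put to these genes was which of them changed with pressure overload, and which of those differed when THZ1 was given with it. When TAC-Veh was set against Sham-Veh, 1 of the 10 rose (Vegfc) and 4 fell (Vegfa, Vegfb, Kdr and Angpt1) at an adjusted p under 0.05, where 21.4% of all genes tested rose and 23.6% fell. Between TAC-THZ1 and TAC-Veh, 2 rose (Vegfb and Angpt1) and 1 fell (Tek), where 15.1% of all genes tested rose and 14.2% fell. None of the 10 was called between Sham-THZ1 and Sham-Veh, where 0.0675% of the genes tested were called in either direction by limma. In that comparison 0 of the 10 had an unadjusted p under 0.05, against 917 of all genes tested, and edgeR and DESeq2 called 0 of the 10. The limma fit shared its estimate of the spread with the TAC groups, which varied more. When Sham-THZ1 and Sham-Veh were fitted alone, 287 of all genes tested were called higher and 178 lower. Again 0 of the 10 were called. For TAC-THZ1 against TAC-Veh the shared estimate took in the sham groups, which varied less. When these 2 TAC groups were fitted alone, 583 of all genes tested were called higher and 816 lower, and 1 of the 10 was called. The largest change was that of Angpt1, which fell by 2.05 on the log2 scale with TAC and rose by 0.75 with THZ1 in TAC hearts.

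For genes that moved with TAC and have an entry in the RefSeq promoter table, the 250 bases before the annotated start are shown because Vegfb, Vegfa and Kdr fell together while Vegfc rose. Capitals mark GC boxes, GGGCGG or its reverse complement CCGCCC. The sequences are given 5′ to 3′ on the gene's own strand, in build GRCm38.p6, and for each of them the first bases after the start were found in a GENCODE transcript. Vegfb lies on the minus strand with its window at chr19:6987652-6987901, Vegfa on the minus strand at chr17:46032378-46032627, Kdr on the minus strand at chr5:75978456-75978705 and Vegfc on the plus strand at chr8:54077282-54077531.
Vegfb: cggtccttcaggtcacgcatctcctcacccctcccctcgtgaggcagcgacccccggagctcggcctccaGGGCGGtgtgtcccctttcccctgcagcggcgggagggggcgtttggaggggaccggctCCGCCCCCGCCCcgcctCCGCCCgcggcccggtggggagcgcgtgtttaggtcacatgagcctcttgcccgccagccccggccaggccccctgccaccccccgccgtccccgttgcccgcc
Vegfa: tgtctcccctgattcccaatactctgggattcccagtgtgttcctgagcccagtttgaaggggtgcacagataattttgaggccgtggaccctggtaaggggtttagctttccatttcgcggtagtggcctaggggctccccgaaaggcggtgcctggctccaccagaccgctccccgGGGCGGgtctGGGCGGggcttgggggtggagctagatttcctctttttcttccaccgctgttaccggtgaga
Kdr: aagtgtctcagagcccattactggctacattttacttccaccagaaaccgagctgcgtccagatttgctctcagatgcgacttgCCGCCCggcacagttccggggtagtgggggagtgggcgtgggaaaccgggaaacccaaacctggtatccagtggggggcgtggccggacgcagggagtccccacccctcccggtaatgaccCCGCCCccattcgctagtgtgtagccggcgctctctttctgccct
Vegfc: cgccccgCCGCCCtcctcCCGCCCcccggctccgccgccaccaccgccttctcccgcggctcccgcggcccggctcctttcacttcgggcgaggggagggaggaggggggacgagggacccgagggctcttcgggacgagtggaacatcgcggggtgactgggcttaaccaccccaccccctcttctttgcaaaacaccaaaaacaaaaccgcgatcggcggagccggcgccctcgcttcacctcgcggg
The Vegfb window holds 4 GC boxes and 76.4% G and C, the Vegfa window 2 and 59.2%, the Kdr window 2 and 61.6%, and the Vegfc window 2 and 71.6%, against a median of 52.4% G and C over 32851 windows of all genes in the table. Across the 9 windows of the 8 members with an entry (Vegfa has 2), 7 hold a GC box on either strand, and 32.7% of all windows do. The core of the hypoxia response element, ACGTG, was searched on both strands as well and is present in 1 of the 9 windows, that of the second Vegfa start, where 16.6% of all windows hold it. The first bases after that start were not found in a GENCODE transcript. Its window, at chr17:46025164-46025413 on the minus strand, lies downstream of the Vegfa start whose window is printed above. The match is therefore not taken as a promoter element, and no window before a supported start held the core. The search covered only the 250 bases before each start. It cannot show whether a core lies further from the start of any of these genes. The 7 windows with a GC box include that of the second Vegfa start, whose GC box is likewise not taken as a promoter element. No match of one motif overlapped a match of the other. Falling and rising genes alike hold GC boxes in these windows.

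The 10 genes are on 7 chromosomes of the build used for counting, mm9 (NCBIM37). Vegfa (ENSMUSG00000023951.9) is at chr17:46153942-46169326, Vegfb (ENSMUSG00000024962.7) at chr19:7056963-7062141 and Vegfc (ENSMUSG00000031520.4) at chr8:55162886-55271808. Flt1 (ENSMUSG00000029648.7) is at chr5:148373180-148537587, Kdr (ENSMUSG00000062960.6) at chr5:76328852-76374483 and Flt4 (ENSMUSG00000020357.3) at chr11:49422765-49466241. Angpt1 (ENSMUSG00000022309.8) is at chr15:42256273-42508523, Angpt2 (ENSMUSG00000031465.6) at chr8:18690263-18741562, Tek (ENSMUSG00000006386.9) at chr4:94405980-94541667 and Tie1 (ENSMUSG00000033191.6) at chr4:118143796-118162666. All are protein-coding genes, and each value counts reads over all annotated exons, untranslated regions included. The 14 annotated transcripts of Vegfa and the soluble and membrane-bound forms of Flt1 are therefore not told apart. Angpt2 overlaps Mcph1, and Angpt1 overlaps Gm17473, in both cases on the opposite strand, and reads were counted by strand.

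Libraries held 21.4 to 35.8 M (mega) reads counted in genes, with a median of 28.2 M, and the median SD over genes of the log2 values was 0.098 for Sham-Veh, 0.092 for Sham-THZ1, 0.218 for TAC-Veh and 0.141 for TAC-THZ1. The TAC groups thus varied more than the sham groups. Among TAC-Veh libraries, replicate 2 had the lowest summed level of 7 cardiomyocyte markers (567462 normalized counts, against 809918 to 834657 in the others). Among TAC-THZ1 libraries, replicate 2 had the highest (1248765, against 996985 to 1060622). Results that rest on these libraries are given without them as well.

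Levels between genes were compared as normalized counts per kilobase (kb) of exon. The length was that of the exons of all annotated transcripts together, 11583 bases for Flt1 with 5 transcripts and 7278 for Kdr with 3. Levels of a gene whose transcripts are each shorter than this are understated, so the order and the per-kb ratios depend on the annotation. In Sham-Veh the highest was Vegfb, with a mean of 2626 per kb, then Vegfa with 1992, Kdr with 702, Tie1 with 517, Tek with 366, Flt1 with 282, Angpt1 with 268, Vegfc with 91.3, Flt4 with 60.9 and Angpt2 with 32.2. Of the neighbours in this order, the libraries of Flt1 and Angpt1 alone overlapped in Sham-Veh. The blood-vessel ligands Vegfa and Vegfb stood above every receptor, and Vegfc and its receptor Flt4 stood near the bottom. In TAC-Veh Angpt1 dropped from rank 7 to rank 9, at 66.1 per kb, where its libraries overlapped those of Flt4, and Vegfb and Vegfa also overlapped (1854 and 1667 per kb), as did Kdr with Tie1 and Tie1 with Tek. In TAC-THZ1 Angpt1 was back at rank 7 with 110.9 per kb and overlapped its neighbour Vegfc at 106.1 per kb.

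**Figure D1:**
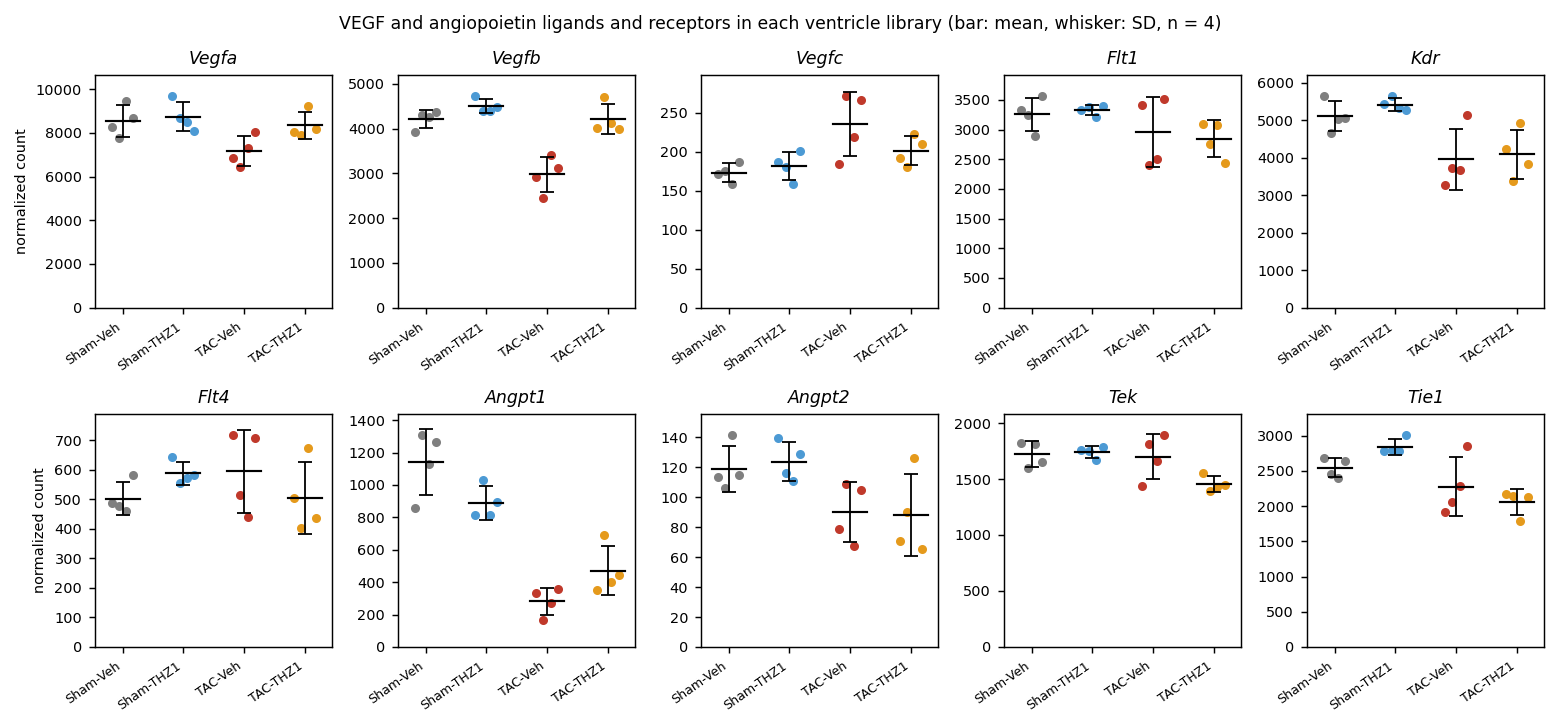
Normalized counts (vertical axes, from 0) of the 10 genes in every library, by group on the horizontal axis, with 4 points per group, a bar at the mean and whiskers of 1 SD. The 4 TAC-Veh libraries of Angpt1 lie between 167 and 359, below all sham libraries (813 to 1308), and those of Vegfb lie between 2456 and 3407, below every library of the other groups.

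Vegfb, the ligand of Flt1, was the VEGF ligand with the clearest change. Its normalized counts were 3928, 4298, 4254 and 4377 in Sham-Veh, and 2917, 2456, 3407 and 3120 in TAC-Veh. They were 4001, 4704, 4127 and 3993 in TAC-THZ1, and 4733, 4399.9, 4399.5 and 4479 in Sham-THZ1. Every TAC-Veh library was below every library of the other 3 groups, and the TAC-THZ1 libraries overlapped those of Sham-Veh. From a mean of 4214 ± 198 (SD, n = 4) in Sham-Veh to 2975 ± 400 in TAC-Veh, Vegfb fell by 0.51 on the log2 scale (SE 0.08, limma adjusted p = 0.00014). In TAC-THZ1 the mean was 4206 ± 337, higher than in TAC-Veh by 0.51 (SE 0.08, limma adjusted p = 0.00053). Both calls held in the 28 alternative settings that kept the threshold of an adjusted p under 0.05, among them leaving out each library in turn, and at an adjusted p under 0.01, but neither passed the fold thresholds of the study, an absolute log2 change of at least 1 with TAC or 0.89 with THZ1 in TAC hearts. The 4 Sham-THZ1 values lay just above all 4 Sham-Veh values, with a log2 difference of 0.10 (95% interval -0.08 to 0.27, limma adjusted p = 0.91).

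Vegfa, the principal angiogenic ligand, moved less. Its normalized counts were 8287, 7758, 9470 and 8690 in Sham-Veh, and 6839, 6437, 7303 and 8050 in TAC-Veh. They were 8021, 7908, 9245 and 8178 in TAC-THZ1. The highest TAC-Veh library stood above the lowest Sham-Veh library and above the lowest 2 TAC-THZ1 libraries, so the groups overlapped. Vegfa fell with TAC by 0.26 on the log2 scale (SE 0.08, limma adjusted p = 0.019), a change of -16.4%, and the call was lost without Sham-Veh replicate 3 (adjusted p = 0.071) or without TAC-Veh replicate 2 (adjusted p = 0.061). TAC-THZ1 was higher than TAC-Veh by 0.22 (95% interval 0.05 to 0.40), which missed the threshold at a limma adjusted p of 0.054. DESeq2 put it at 0.039, and without TAC-Veh replicate 4 it was 0.018.

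Vegfc, the lymphangiogenic ligand, was the only one of the 10 called higher with TAC. The values were 172, 175, 158 and 187 normalized counts in Sham-Veh, and 185, 272, 219 and 267 in TAC-Veh. They were 192, 181, 222 and 210 in TAC-THZ1. In TAC-Veh, 3 of the 4 libraries exceeded all sham libraries, and replicate 1 lay within the Sham-Veh range. Vegfc rose by 0.43 on the log2 scale (SE 0.12, limma adjusted p = 0.0081), and the call held in the 28 alternatives that kept this threshold but did not pass the fold thresholds of the study. TAC-THZ1 differed from TAC-Veh by -0.21 (95% interval -0.46 to 0.04, limma adjusted p = 0.19), and without TAC-Veh replicate 1 the difference was -0.32 with an adjusted p of 0.030.

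Because ligands of one receptor system moved in opposite directions, their ratio within each library was also taken, as normalized counts per kb and as a description without a test. The Vegfa to Vegfc ratio averaged 22.0 ± 3.06 in Sham-Veh and 13.7 ± 2.50 in TAC-Veh, with no overlap, and 18.3 ± 0.863 in TAC-THZ1. The Vegfa to Vegfb ratio averaged 0.760 ± 0.067 in Sham-Veh, 0.906 ± 0.083 for TAC-Veh and 0.745 ± 0.087 for TAC-THZ1. The libraries overlapped, as the ratio ran from 0.801 to 0.980 for TAC-Veh and reached 0.832 for Sham-Veh and 0.837 for TAC-THZ1. As a share of the summed cardiomyocyte markers, Vegfb was 0.341% ± 0.0073 in Sham-Veh, 0.396% ± 0.031 in TAC-Veh and 0.390% ± 0.016 in TAC-THZ1, and Vegfa was 0.694% ± 0.070, 0.960% ± 0.131 and 0.780% ± 0.114. Relative to those markers, whose sum was itself lower in TAC-Veh, neither ligand was lower in TAC-Veh than in Sham-Veh. The largest term of that sum was Myh6, with a mean of 501105 in Sham-Veh and 225634 in TAC-Veh. Another term, Actn2, had means of 41206 and 40228. These shares therefore depend on the markers summed and do not measure cardiomyocyte content.

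**Figure D2:**
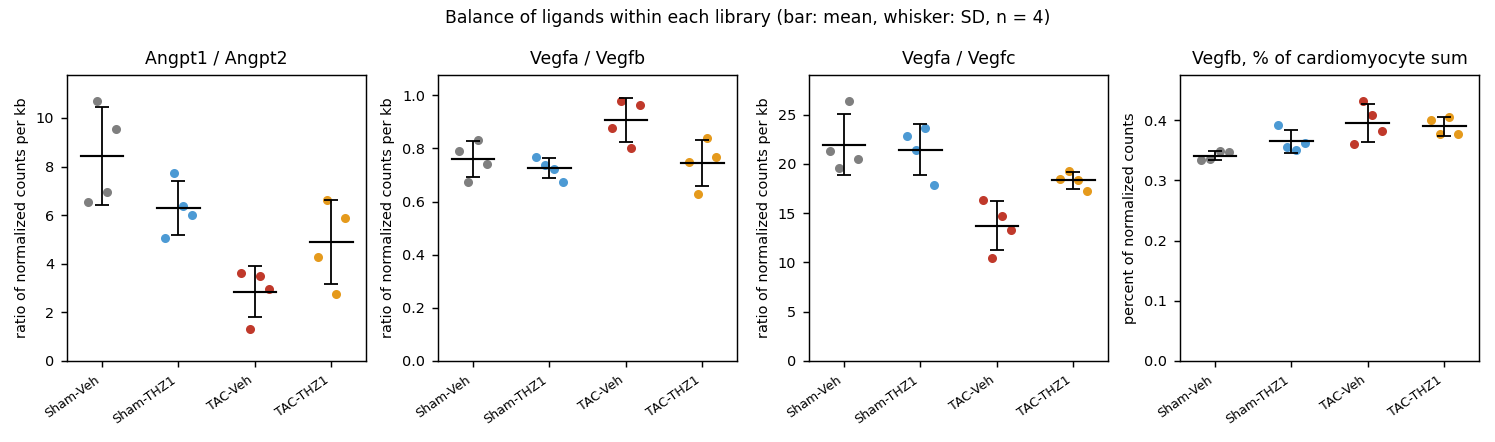
Ratios of ligand pairs in normalized counts per kb, and Vegfb as a percent of the summed cardiomyocyte markers (vertical axes, from 0), by group, with 4 libraries per group, means and 1 SD. The Angpt1 to Angpt2 ratio lies at 6.54 to 10.7 in Sham-Veh and at 1.33 to 3.64 in TAC-Veh. The Vegfb share does not fall in TAC-Veh, where Myh6, the largest term of the sum, is itself lower.

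Among the VEGF receptors, Kdr, the main signalling receptor for VEGF-A, was the one that changed with TAC. Libraries held 5652, 4668, 5039 and 5068 normalized counts in Sham-Veh, and 3261, 3728, 3671.5 and 5147 in TAC-Veh. They were 4226, 3380, 4934 and 3826 in TAC-THZ1, and 5438, 5638, 5312 and 5275 in Sham-THZ1. In TAC-Veh, 3 libraries lay below every sham library, and replicate 4 lay within the Sham-Veh range. Kdr fell by 0.39 on the log2 scale with TAC (SE 0.12, limma adjusted p = 0.017), and the call was lost without TAC-Veh replicate 1 (0.054) or Sham-Veh replicate 1 (0.053). Kdr was not called between TAC-THZ1 and TAC-Veh (log2 difference 0.06, 95% interval -0.20 to 0.32, limma adjusted p = 0.76).

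Flt1, the high-affinity receptor and decoy, was measured at 3328, 3252, 2897 and 3570 normalized counts in Sham-Veh, and at 3421, 2405, 2510 and 3509 in TAC-Veh. In TAC-Veh, replicates 2 and 3 lay below the Sham-Veh range and replicates 1 and 4 within it, and the log2 difference was -0.16 (95% interval -0.40 to 0.08, limma adjusted p = 0.28). TAC-THZ1 libraries lay between 2439 and 3094, with a difference from TAC-Veh of -0.04 (95% interval -0.28 to 0.20, adjusted p = 0.80). Flt4, the receptor for VEGF-C, was at 459 to 582 in Sham-Veh, 440 to 717 in TAC-Veh, 402 to 675 in TAC-THZ1 and 555 to 643 in Sham-THZ1. No comparison called Flt4, and its 95% interval for TAC-Veh against Sham-Veh ran from -0.12 to 0.56 on the log2 scale. The per-kb ratio of Flt1 to Kdr averaged 0.403 ± 0.043 in Sham-Veh and 0.481 ± 0.120 in TAC-Veh, where replicate 1 alone reached 0.659.

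Angpt1, the agonist of Tek, had the largest fitted change of the 10 in each of the 5 comparisons. Its normalized counts were 856, 1308, 1132 and 1266 in Sham-Veh, and 330, 167, 270 and 359 in TAC-Veh. They were 352, 689, 403 and 444 in TAC-THZ1, and 813, 1032, 815 and 893 in Sham-THZ1. All TAC libraries were below all sham libraries. The TAC-THZ1 libraries lay mostly above those of TAC-Veh, with 1 overlap, as TAC-THZ1 replicate 1 was just under TAC-Veh replicate 4. From 1141 ± 204 (SD, n = 4) in Sham-Veh to 282 ± 85.0 in TAC-Veh, Angpt1 fell by 2.05 on the log2 scale (SE 0.22, limma adjusted p = 3.4e-06), a change of -75.9%, and this call held in the 28 alternatives and passed the fold thresholds of the study. Angpt1 was higher in TAC-THZ1 (472 ± 149) than in TAC-Veh by 0.75 (SE 0.22, limma adjusted p = 0.018), and the groups compared alone gave an adjusted p of 0.090. Without TAC-Veh replicate 2 the difference was 0.52 (adjusted p = 0.066), and without TAC-THZ1 replicate 2 it was 0.56 (adjusted p = 0.069). Sham-THZ1 was lower than Sham-Veh by a fitted 0.35, with a 95% interval of -0.82 to 0.12 and a limma adjusted p of 0.82.

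Angpt2, the context-dependent antagonist, was low in every group. The libraries showed normalized counts of 114, 106, 141 and 115 in Sham-Veh, 78.8, 109, 67.4 and 105 in TAC-Veh, and 71.0, 90.4, 126 and 65.3 in TAC-THZ1. TAC-Veh and Sham-Veh overlapped, and the log2 difference of -0.42 (95% interval -0.82 to -0.02) had a limma adjusted p of 0.084. Without TAC-THZ1 replicate 3, which enters the shared estimate of the spread, it was 0.042. In TAC-THZ1, replicate 3 was the highest library of its group and stood within the Sham-Veh range. The Angpt1 to Angpt2 ratio per kb averaged 8.44 ± 2.02 in Sham-Veh, 2.85 ± 1.06 in TAC-Veh, 4.89 ± 1.71 in TAC-THZ1 and 6.29 ± 1.11 in Sham-THZ1. Agonist transcripts outnumbered antagonist transcripts per kb in all 16 libraries.

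Tek, the angiopoietin receptor, was not called with TAC under vehicle but fell with THZ1 in TAC hearts. Measured levels were 1823, 1603, 1815 and 1653 normalized counts in Sham-Veh, and 1436, 1813, 1657 and 1893 in TAC-Veh. They were 1557, 1389, 1426 and 1446 in TAC-THZ1. The TAC-Veh libraries spanned the Sham-Veh range, and 3 of them lay above all TAC-THZ1 libraries. The log2 difference was -0.03 for TAC-Veh against Sham-Veh (95% interval -0.19 to 0.14, limma adjusted p = 0.81). For TAC-THZ1 against TAC-Veh, Tek fell by 0.22 (SE 0.08, limma adjusted p = 0.041), a change of -14.0%. This call was close to the threshold and held in 16 of the 28 alternatives that kept it. It was lost when any of TAC-Veh replicates 2 or 4 (adjusted p = 0.12 and 0.11), TAC-THZ1 replicates 2, 3 or 4 (0.11, 0.077 and 0.075) or Sham-THZ1 replicates 1, 2 or 4 (0.053, 0.053 and 0.051) was left out.

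Tie1, the partner of Tek, was at 2681, 2459, 2400.4 and 2635.5 normalized counts in Sham-Veh, and at 1911, 2054, 2284 and 2855 in TAC-Veh. It was at 2173, 2137, 1784 and 2131 in TAC-THZ1, and at 2783, 2790, 2786 and 3008 in Sham-THZ1. In TAC-Veh, 3 libraries lay below all sham libraries and replicate 4 above all of Sham-Veh. The difference with TAC under vehicle was -0.18 (95% interval -0.39 to 0.03, limma adjusted p = 0.16), and without TAC-Veh replicate 4 it was -0.29 with an adjusted p of 0.0056. THZ1 in TAC hearts gave -0.13 (95% interval -0.34 to 0.08, adjusted p = 0.33). All Sham-THZ1 libraries lay above all Sham-Veh libraries, with a log2 difference of 0.16 (95% interval -0.05 to 0.37, limma adjusted p = 0.81).

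**Figure D3:**
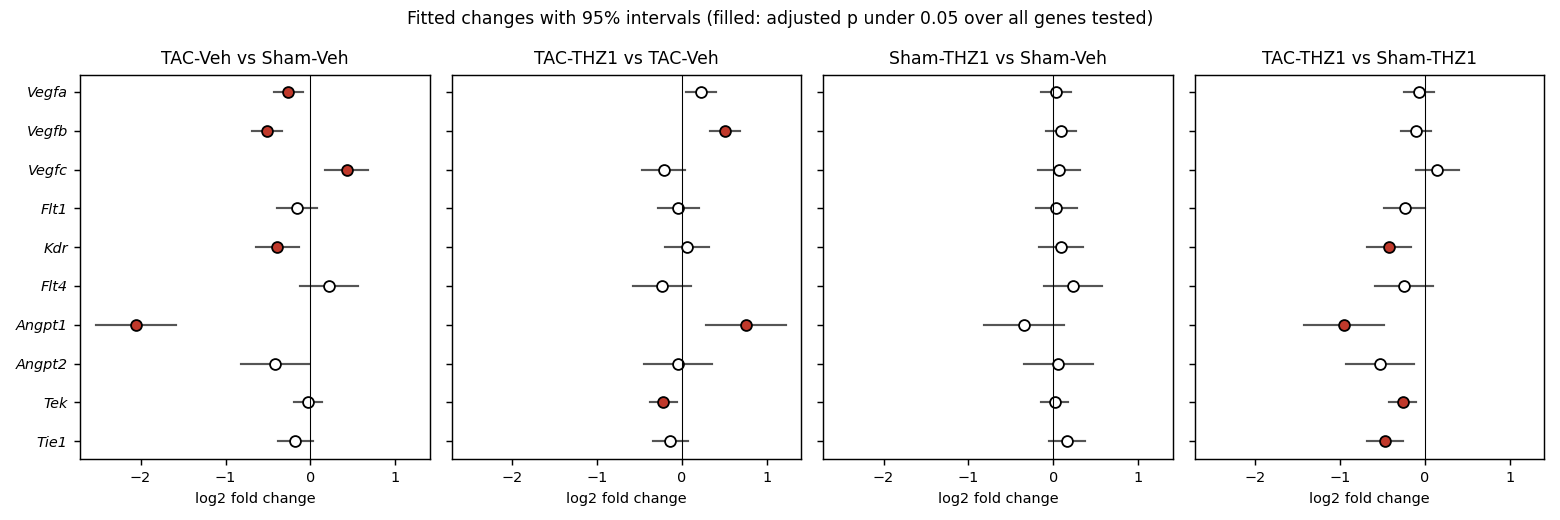
Log2 fold changes (horizontal axes) of the 10 genes in 4 comparisons, with 95% intervals from the limma fit; filled points had an adjusted p under 0.05 over all genes tested. Angpt1 lies furthest from 0 in TAC-Veh against Sham-Veh, at -2.05, and no point is filled for Sham-THZ1 against Sham-Veh.

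Under THZ1, TAC hearts were also compared with sham hearts. Here 4 of the 10 genes fell (Kdr, Angpt1, Tek and Tie1), where 12.8% of all genes tested fell. By limma 0 rose, 0 also at an unadjusted p under 0.05 and by edgeR and DESeq2, where 11.4% of all genes tested rose. Tie1 fell by 0.47 (SE 0.10, limma adjusted p = 0.0042) and Angpt1 by 0.95 (SE 0.22, adjusted p = 0.0071), and both calls held in the 28 alternatives that kept this threshold, while neither passed the fold thresholds of the study. Kdr fell by 0.42 (SE 0.12, limma adjusted p = 0.022), and its call was lost without Sham-THZ1 replicate 2 (0.055), TAC-THZ1 replicate 2 (0.061) or TAC-THZ1 replicate 4 (0.056). Tek fell by 0.26 (SE 0.08, limma adjusted p = 0.023), and its call was lost without Sham-THZ1 replicates 1, 2 or 4 (0.053, 0.051 and 0.061) or TAC-THZ1 replicates 2 or 3 (0.050 and 0.050). Angpt2 missed the threshold at -0.53 (limma adjusted p = 0.054), and without TAC-THZ1 replicate 3 its difference was -0.71 (adjusted p = 0.012). It also passed without TAC-Veh replicates 1, 2 or 3 (adjusted p = 0.045, 0.048 and 0.042). The ligands Vegfa, Vegfb and Vegfc differed by -0.07, -0.10 and 0.15, with 95% intervals of -0.24 to 0.11, -0.28 to 0.08 and -0.10 to 0.40.

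Whether the THZ1 difference itself differed between TAC and sham hearts was tested as an interaction. It was called for 2 of the 10 genes, both with a positive term, where 4.4% of all genes tested had a positive and 5.62% a negative term that passed. For Vegfb the THZ1 difference was larger in TAC than in sham hearts by 0.41 (SE 0.12, limma adjusted p = 0.039), and for Angpt1 by 1.10 (SE 0.31, adjusted p = 0.037). Each call was lost when any of 9 of the 16 libraries was left out. For Vegfb these were Sham-Veh replicates 2, 3 or 4 (0.077, 0.073 and 0.072), Sham-THZ1 replicates 1, 2, 3 or 4 (0.054, 0.073, 0.069 and 0.07), TAC-Veh replicate 2 (0.056) or TAC-THZ1 replicate 2 (0.083), with the adjusted p in parentheses. For Angpt1 they were Sham-Veh replicates 2, 3 or 4 (0.078, 0.067 and 0.07), Sham-THZ1 replicates 1, 3 or 4 (0.072, 0.068 and 0.064), TAC-Veh replicate 2 (0.059) or TAC-THZ1 replicates 2 or 4 (0.073 and 0.054). Without TAC-Veh replicate 2 the terms were 0.32 for Vegfb (adjusted p = 0.056) and 0.87 for Angpt1 (adjusted p = 0.059). For Tek the term was -0.23 (limma adjusted p = 0.17), and without TAC-Veh replicate 1 it was -0.31 with an adjusted p of 0.031.

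Over the 10 genes the median log2 change was -0.22 for TAC under vehicle, beside 0.00 over all genes tested (-0.0030), -0.05 for THZ1 in TAC hearts (0.015 over all genes), 0.06 for THZ1 in sham hearts (0.0026) and -0.25 for TAC under THZ1 (0.0018). TAC-Veh is shared by the first 2 of these comparisons, so a high or low TAC-Veh value moves both.

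The fall of receptor genes in bulk tissue can be read only together with the cells that carry them, since fewer cells of a type and less RNA per cell cannot be told apart here. The summed level of 10 endothelial markers, none of them a gene described above and none at 0 in any library, was 20019 to 22016 normalized counts for Sham-Veh, 22408 to 24661 for Sham-THZ1, 18883 to 24867 for TAC-Veh and 18016 to 19331 for TAC-THZ1. It spanned the sham range in TAC-Veh and lay below all sham libraries in TAC-THZ1. Of the 10 markers, 3 rose (Egfl7, Emcn and Ecscr) and 1 fell (Cdh5) with TAC under vehicle, where 21.4% of all genes tested rose and 23.6% fell. With THZ1 in TAC hearts 1 rose (Emcn) and 5 fell, where 15.1% of all genes tested rose and 14.2% fell. The same shares stand beside the marker counts of the other cell types below. The markers called lower with THZ1 were Cdh5 (-0.41), Pecam1 (-0.40), Cldn5 (-0.53), Erg (-0.39) and Ecscr (-0.40). Over all 10 markers, called or not, the median difference was -0.30. The differences of Tek and Tie1 in the same comparison were -0.22 and -0.13. As a share of the endothelial sum, Kdr was 24.6% ± 1.88 in Sham-Veh, 18.4% ± 4.05 in TAC-Veh and 22.1% ± 3.78 in TAC-THZ1, and Tek was 8.32% ± 0.692, 7.94% ± 1.46 and 7.85% ± 0.284. In that share the TAC-THZ1 libraries of Tek lay within the TAC-Veh range, whereas the TAC-Veh libraries of Kdr lay below all Sham-Veh libraries. The part of endothelial content in these results was not tested.

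Lymphatic content bears on Vegfc and Flt4. Of 6 lymphatic markers, of which Ccl21a was at 0 in some libraries and was not tested, 3 rose (Pdpn, Mmrn1 and Reln) and 1 fell (Prox1) with TAC under vehicle, and 2 fell (Pdpn and Reln) with THZ1 in TAC hearts. Their sum was 1626 to 1858 for Sham-Veh, 1489 to 1920 for Sham-THZ1, 1833 to 2818 for TAC-Veh and 1531 to 2661 for TAC-THZ1. For Angpt1, a product of mural and stromal cells, 4 of 6 pericyte markers fell with TAC under vehicle (Abcc9, Notch3, Rgs5 and Kcnj8), 2 rose (Abcc9 and Kcnj8) and 1 fell (Cspg4) with THZ1 in TAC hearts, and their sum was 31651 to 33344 for Sham-Veh, 31281 to 31637 for Sham-THZ1, 19116 to 28902 for TAC-Veh and 22512 to 24142 for TAC-THZ1. As a share of the pericyte sum Angpt1 was 3.53% ± 0.609 in Sham-Veh and 1.28% ± 0.356 in TAC-Veh, without overlap. It was 2.02% ± 0.576 in TAC-THZ1. The largest term of that sum was Rgs5, with a mean of 16846 in Sham-Veh and 13083 in TAC-Veh. The share therefore depends on the markers summed and does not measure pericyte content. The part of lymphatic, mural and stromal cells in these results was not tested.

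For the cardiomyocyte list, 4 of 7 markers fell with TAC under vehicle (Myh6, Ryr2, Pln and Tnni3) and 5 rose with THZ1 in TAC hearts (Myl2, Pln, Tnni3, Tnnt2 and Ryr2), with sums of 1173264 to 1281131 for Sham-Veh, 1204870 to 1257269 for Sham-THZ1, 567462 to 834657 for TAC-Veh and 996985 to 1248765 for TAC-THZ1. These sums were lower in TAC-Veh than in every other library, as were the values of Vegfb. Of 6 fibroblast markers, Dcn, Lum and Col1a1 rose with TAC and fell with THZ1 in TAC hearts (sums of 48393 to 54433 for Sham-Veh, 51816 to 55308 for Sham-THZ1, 70639 to 77090 for TAC-Veh and 52552 to 75631 for TAC-THZ1). Of 6 macrophage markers, Cd68, Adgre1, Cd14 and C1qa rose with TAC (sums of 3274 to 3858, 3117 to 3765, 5030 to 6417 and 3486 to 6636 in the same order of groups). Of 4 smooth muscle markers, Tagln rose and Myh11 fell with TAC, and Tagln fell with THZ1 in TAC hearts (sums of 2664 to 4129, 3444 to 4232, 2683 to 3827 and 1910 to 3649). The part of these cell types in the changes of the ligands was not tested.

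**Figure D4:**
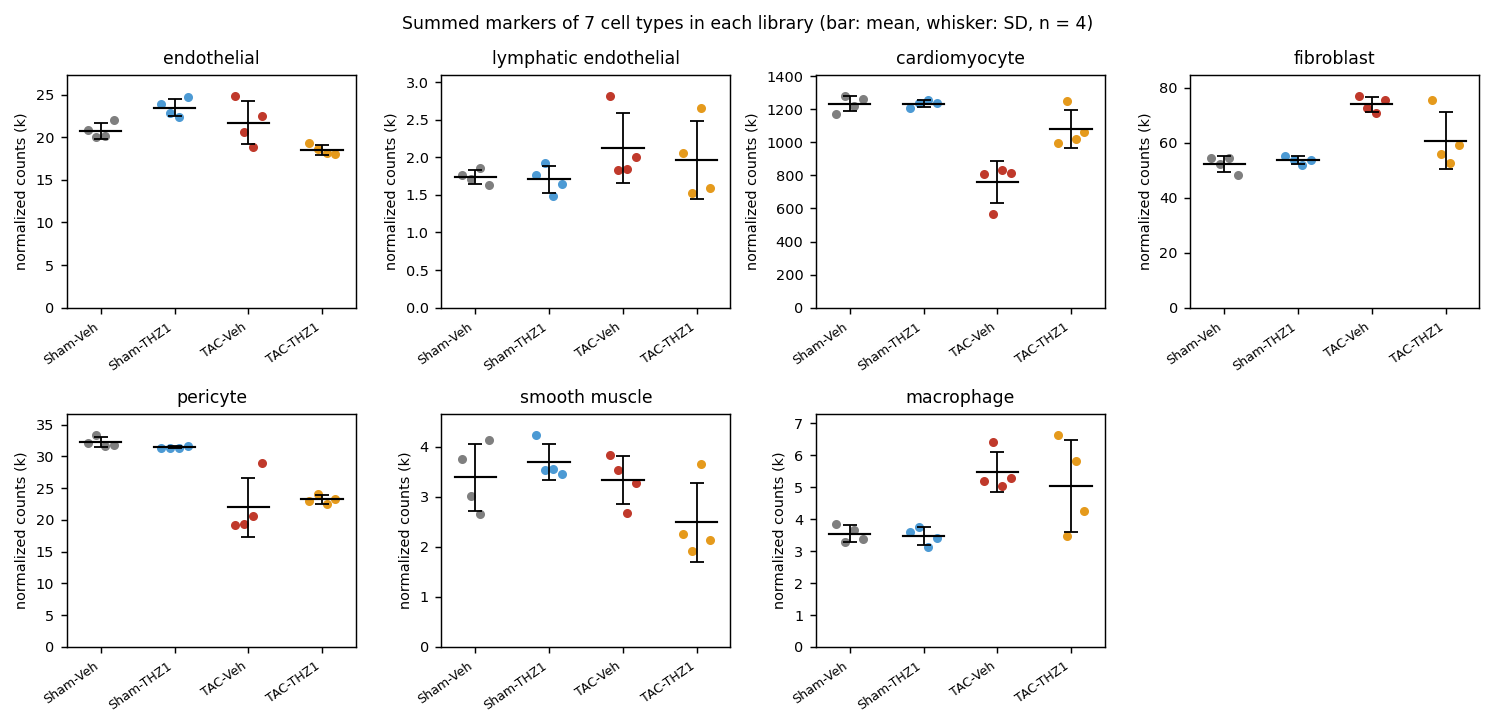
Summed normalized counts of the markers of 7 cell types (vertical axes in k, or kilo, from 0), by group, with 4 libraries per group, means and 1 SD. Cardiomyocyte sums are lowest in TAC-Veh, pericyte sums are lower in both TAC groups than in both sham groups, and endothelial sums in TAC-THZ1 (18016 to 19331) lie below all sham libraries.

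A further 35 genes of the pathway were taken from lists of other ligands, co-receptors and modulators, oxygen sensing, receptor signalling, and sprouting and Notch genes. Of these 33 could be tested; the ligand Angpt4 and the adaptor Sh2d2a were too low. With TAC under vehicle 3 rose and 7 fell, and with THZ1 in TAC hearts 2 rose and 7 fell, beside the shares of all genes given above. With THZ1 in sham hearts 0 of the 33 were called by limma, edgeR or DESeq2, and 0 had an unadjusted p under 0.05. Under THZ1, 2 rose with TAC (Svep1 by 0.64 and Vegfd by 0.60) and 8 fell, where 11.4% of all genes tested rose and 12.8% fell. Of the calls, 9 of 10 with TAC and 7 of 9 with THZ1 held when any library was left out.

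The changes nearest to VEGF-C and the angiopoietin receptors were in the genes that process or modulate these ligands. Svep1, a secreted matrix protein needed for lymphatic vessels, was at 324 to 444 normalized counts for Sham-Veh, 1422 to 3085 for TAC-Veh and 397 to 684 for TAC-THZ1. All TAC-Veh libraries stood above all libraries of both other groups. Svep1 rose by 2.48 on the log2 scale with TAC (SE 0.20, limma adjusted p = 2.1e-07) and fell by 1.83 with THZ1 in TAC hearts (adjusted p = 3.3e-05). Ccbe1, which helps activate VEGF-C, went the other way, falling by 2.06 with TAC (adjusted p = 6.9e-06) and rising by 1.07 with THZ1 (adjusted p = 0.0039, and 0.060 with the groups compared alone). Its level was low, 62.0 to 81.8 for Sham-Veh and 10.6 to 26.4 for TAC-Veh, and it was not among the genes tested with a mean of at least 50. Adamts3, the protease that cleaves pro-VEGF-C, fell by 0.80 with TAC (adjusted p = 0.0034). The ligand Vegfc thus rose while both processing genes Ccbe1 and Adamts3 fell. Vash2, a vasohibin, fell by 1.36 with TAC from at most 13.8 normalized counts in Sham-Veh (adjusted p = 0.015). Ptprb, the endothelial phosphatase that acts on Tek, differed with TAC by 0.24 (adjusted p = 0.092) and fell by 0.53 with THZ1 in TAC hearts (adjusted p = 0.0029, and 0.0502 with the groups compared alone). The co-receptors Nrp1 and Nrp2 gave -0.33 and -0.28 with TAC and were not called. The other ligands Pgf and Vegfd gave -0.19 and 0.32 and were not called either.

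In the oxygen-sensing list, Epas1, which encodes HIF-2α, fell by 0.57 with TAC (SE 0.12, limma adjusted p = 0.00087) and was not called with THZ1 in TAC hearts (0.03, adjusted p = 0.87). Egln1, a prolyl hydroxylase that marks HIF-α for degradation, fell by 0.53 with TAC (adjusted p = 0.00016) and rose by 0.46 with THZ1 in TAC hearts (adjusted p = 0.0014), without overlap of the groups in either comparison. Its relative Egln3 rose by 0.42 with TAC (adjusted p = 0.035), a call that was lost without Sham-Veh replicates 2 or 3 (0.13 and 0.0595) or TAC-Veh replicates 1, 2 or 4 (0.068, 0.091 and 0.058). Hif1a missed the threshold with TAC (0.28, adjusted p = 0.0505) and fell by 0.53 with THZ1 in TAC hearts (adjusted p = 0.0027). Arnt, Vhl, Egln2 and Hif3a were not called in either comparison.

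In receptor signalling, Shb, an adaptor of Kdr, rose by 0.63 with TAC (SE 0.10, limma adjusted p = 0.00011) and fell by 0.34 with THZ1 in TAC hearts (adjusted p = 0.019; 0.053 without TAC-Veh replicate 2, 0.061 without TAC-THZ1 replicate 1 and 0.052 without TAC-THZ1 replicate 2). With the groups compared alone Shb had an adjusted p of 0.080 there, and with array weights 0.093. Plcg1, Dok2, Akt1, Nos3, Foxo1 and Rasip1 were not called in either. Among the sprouting and Notch genes, Apln, a peptide of sprouting tips, fell by 1.32 with TAC (adjusted p = 0.00040) and Notch1 by 0.49 (adjusted p = 0.0062). With THZ1 in TAC hearts the receptors Notch4, Unc5b and Cxcr4 fell by 0.52, 0.64 and 0.58 (adjusted p = 0.0033, 0.014 and 0.0056), and for Unc5b the adjusted p was 0.052 without TAC-Veh replicate 2 and 0.086 with the groups compared alone. The tip-cell ligand Dll4 gave -0.10 in both comparisons and was not called, nor were Esm1 and Pdgfb.

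**Figure D5:**
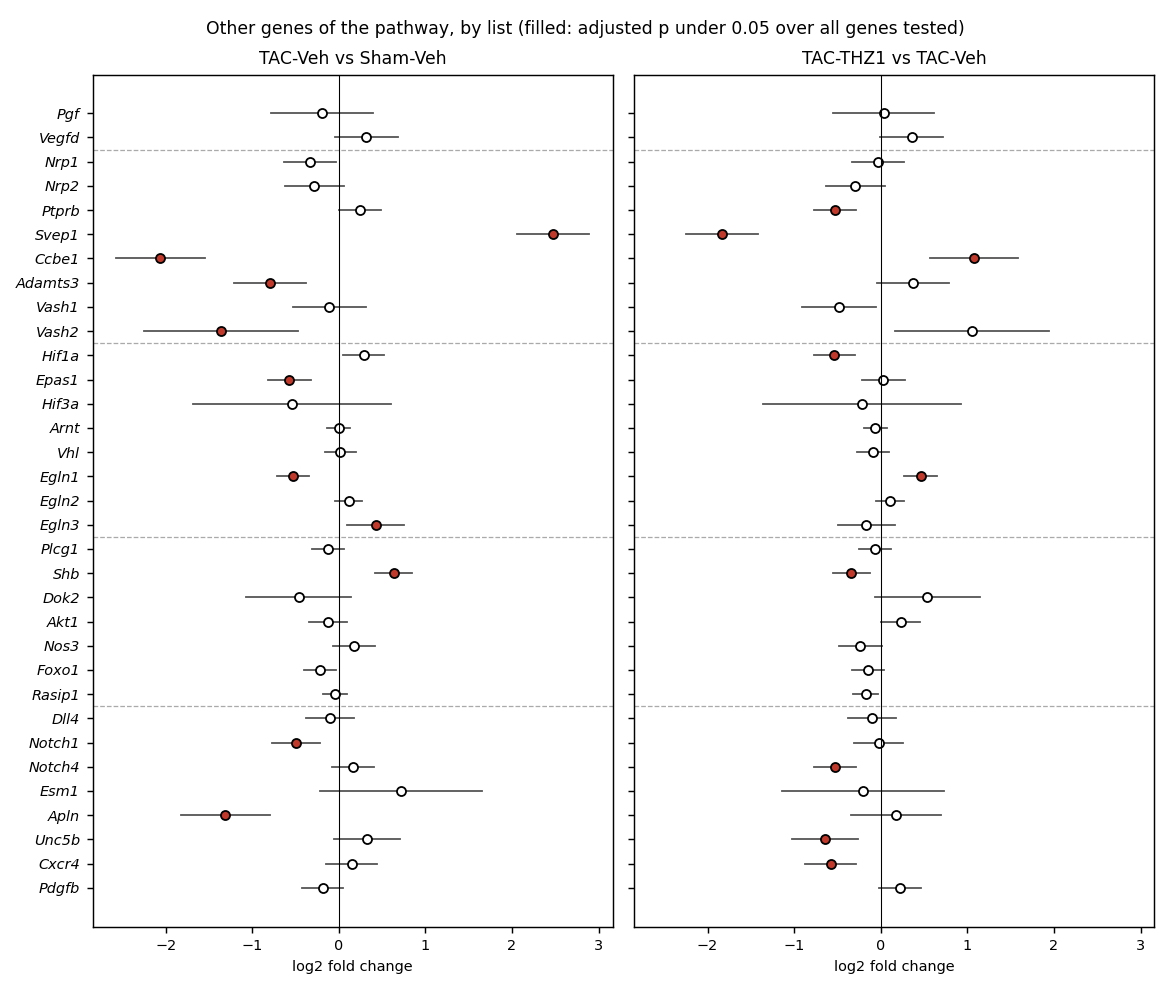
Log2 fold changes (horizontal axes) with 95% intervals of the 33 further genes tested, grouped by list between dashed lines, for TAC-Veh against Sham-Veh and TAC-THZ1 against TAC-Veh; filled points had an adjusted p under 0.05 over all genes tested. Svep1 lies at 2.48 on the left and -1.83 on the right, and Ccbe1 at -2.06 and 1.07.

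To show which other genes followed the same pattern over the 16 libraries, genes were ranked by the root mean square difference of their centred log2 values, among the 10317 genes whose mean normalized count reached 100 or more. For Vegfb the nearest were 2310061I04Rik, Coq9 and Cpt1b at 0.059, 0.059 and 0.061, against a spread of Vegfb itself of 0.26. For Angpt1 they were Pla2g5, Slc6a17 and Ppm1k at 0.27, 0.28 and 0.28, against 0.87 for Angpt1 itself. Angpt1 thus had no neighbour as close as those of Vegfb in absolute terms, but its own changes were also larger. For Vegfa they were Mettl14, Gtf2ird2 and Psme3 (0.072 to 0.080, against 0.15), for Vegfc Grwd1, Stx6 and Athl1 (0.10 to 0.11, against 0.22), for Flt1 Api5, Rdx and Eif4h (0.11, against 0.18), for Tek Mfsd6, Git2 and Manba (0.069 to 0.078, against 0.14) and for Tie1 C130074G19Rik, Agrn and Rgp1 (0.068 to 0.087, against 0.22). For Flt4 and Angpt2 the nearest genes, Hk1 and Ncapd2, were at 0.14 and 0.19, against 0.25 and 0.35. No gene of the receptor family was among the nearest 3 of another, and the 3 nearest were chosen from many genes, so such a match carries no test.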

How the data were processed

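RNA-seq was available for ventricle pieces of 16 mice in 4 groups of 4. Per the paper's methods and the labels, the authors used a stranded mRNA kit, aligned reads with TopHat 2.1.1 to mm9, counted them per GENCODE gene with htseq-count in reverse-stranded mode, and divided the counts by DESeq2 size factors. The deposited signal is this normalized count per gene and library. Whole reads were recovered from the step of each library (100% of values whole within 0.001), giving 21.4 to 35.8 M (mega) reads and size factors of 0.749 to 1.40. Identifiers were matched to GENCODE vM1 on NCBIM37, which gave a symbol for all 22372 genes.

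Genes with at least 10 normalized counts in at least 4 libraries were tested on log2(normalized count + 1) with limma 3.58.1 (empirical Bayes with a mean-variance trend, 1 mean per group, all 16 libraries, 95% intervals), and p-values were adjusted by Benjamini-Hochberg over all 13331 genes. Fold changes are on that log2 scale, which understates changes of low genes. Replicates were separate mice; their counts differed by a chi-square of 3.06 to 98.3 per degree of freedom. The fit was tested on simulated counts with the same dispersion in every group. That simulation did not cover the larger spread of the TAC groups. Alternatives included edgeR 4.0.16 and DESeq2 1.42.0 on recovered reads, other scalings, filters and pseudocounts, and leaving out each library. The 10 genes and all lists were chosen with earlier results of these data known. The text names the 10 genes, list genes that passed in TAC-Veh against Sham-Veh or TAC-THZ1 against TAC-Veh, and up to 3 genes most alike to each member (those of Kdr are not reported here); other list genes were named after their values were seen. Promoter sequences came from a RefSeq table in GRCm38.p6, which matched 8 of the 10 genes, and were not used with mm9 coordinates.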

Additional observations from a re-analysis of the deposited data

Results flagged for a closer look

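For Vegfb and Angpt1 the THZ1 difference was larger in TAC hearts than in sham hearts by the interaction term of the limma fit, at 0.41 (adjusted p = 0.039) and 1.10 (adjusted p = 0.037) on the log2 scale. Among the 40 sets of 4 libraries (10 genes in 4 groups), 2 held a library far from the other 3, both of Tie1, the partner of Tek. In Sham-THZ1 the highest library was at 3008 normalized counts and in TAC-THZ1 the lowest was at 1784. Chance alone sets apart about 1 in 20 such sets.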

How the results depend on the processing

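Over 30 alternative settings, 1357 of 1470 log2 changes of the 10 genes kept their direction and their side of the threshold. Of the rest, 71 lost a call, 16 gained one and 26 changed sign. None of the sign changes was in a value called in either fit. Part of this agreement was fixed in advance. Settings that changed only the threshold reuse the main log2 changes. Leaving out a library outside a pairwise comparison also leaves its log2 change as it was. The fold thresholds of the study left 1 of the 10 genes called with TAC under vehicle, 0 with THZ1 in TAC hearts and 0 with TAC under THZ1. Of all 13331 genes tested they left 619 higher and 449 lower, 246 and 483, and 155 and 115, in the same order. An adjusted p under 0.01 left 3, 1 and 2, and 0 interactions. Of all genes tested it left 1902 higher and 2151 lower, 1023 and 1035, and 539 and 715. It also left 65 positive and 198 negative interactions. The groups compared alone left 1 call with THZ1 in TAC hearts, and array weights gave 7 with TAC under THZ1. The counts over all genes tested moved the same way. The groups compared alone called 583 higher and 816 lower, against 2019 and 1899 in the main fit. Array weights called 2379 higher and 2632 lower, against 1514 and 1706. Leaving out 1 library gave 1 to 4 calls with THZ1 in TAC hearts, 2 to 5 with TAC under THZ1 and 0 to 3 interactions. Over all genes tested these fits called 1365 to 2352 higher and 1318 to 2224 lower with THZ1 in TAC hearts. With TAC under THZ1 they called 889 to 1990 higher and 1089 to 2210 lower. Interactions numbered 246 to 1243 positive and 444 to 1236 negative. Same-numbered libraries of different groups correlated at -0.43 to 0.16 in their deviations from the group means, over 0.1 in 2 of 24 pairs, so the numbers were not taken to pair the mice. With the replicate block 0 interactions were called and Tek with THZ1 in TAC hearts had an adjusted p of 0.065, and no other call of the 10 genes changed. Over all genes tested that setting called 471 positive and 663 negative interactions.

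Quantile normalization ended the calls of Vegfa with TAC (adjusted p = 0.088), Tek with THZ1 in TAC hearts (0.057), and Kdr (0.054) and Tek (0.057) with TAC under THZ1, and it added Angpt2 in both TAC comparisons (0.024 and 0.029). Array weights ended Vegfa with TAC (0.074) and added Flt1 (0.014), Flt4 (0.045) and Angpt2 (0.0049) with TAC under THZ1. With the groups compared alone, Vegfa with TAC (0.054), Tek (0.16) and Angpt1 (0.090) with THZ1 were lost and Flt1 with TAC under THZ1 was added (0.029), and upper quartile scaling ended Tek with THZ1 (0.052). The causes were not tested.

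Signs changed for Tek with TAC under array weights (0.0168), Kdr with THZ1 in TAC hearts under array weights (-0.0223), Angpt2 in that comparison under quantile normalization (0.00517) and Tek with THZ1 in sham hearts under quantile normalization (-0.00228). Leaving out 1 library gave -0.0800 to 0.0528 for Tek with TAC. With THZ1 in TAC hearts it gave -0.137 to 0.0444 for Flt1, -0.0370 to 0.192 for Kdr and -0.234 to 0.0791 for Angpt2. With THZ1 in sham hearts it gave -0.0175 to 0.0837 for Vegfa, -0.0208 to 0.0795 for Flt1, -0.000167 to 0.145 for Angpt2 and -0.0185 to 0.0436 for Tek. For the interaction it gave -0.172 to 0.00959 for Flt1, -0.125 to 0.104 for Kdr and -0.293 to 0.0199 for Angpt2. With 4 mice a group, changes as small as those of Tek and Vegfa sat near the threshold.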
